A study of Mus musculus with 21 samples.

Results

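*Trh* encodes the precursor of thyrotropin-releasing hormone (TRH), and its expression was followed in the ventral hypothalamus (VH) of mice in 4 diet groups together with that of its receptor (*Trhr*), its degrading enzyme (*Trhde*), the deiodinases (*Dio2*, *Dio3*), a thyroid hormone transporter (*Slco1c1*), the nuclear thyroid hormone receptors (*Thra*, *Thrb*) and the thyroid hormone target *Hr*. The genes were picked by name for these roles, and all 9 were present among the 21654 genes of the deposited count table. TRH neurons of the paraventricular nucleus send the peptide to the pituitary, where it drives the release of thyrotropin, and other hypothalamic neurons use it as a transmitter. Thyroxine enters the brain through transporters such as that of *Slco1c1*, is converted to the active hormone triiodothyronine by the deiodinase of *Dio2* in astrocytes and tanycytes, and is inactivated by that of *Dio3*. Triiodothyronine acts through the receptors of *Thra* and *Thrb*, and in the paraventricular nucleus it lowers the transcription of *Trh*.

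Male C57BL/6J mice, obtained at 12 to 14 weeks of age, ate regular chow (RC) or a high-fat diet (HFD, 45% of calories as fat) for 8 to 10 weeks. They then either stayed on that diet without a diet switch (NoDS) or underwent a diet switch (DS) to the other one, which gave RC NoDS, HFD → RC and HFD NoDS with 5 libraries each and RC → HFD with 6. All mice were killed 7 days after the DS at zeitgeber time 6, following 3 h of wakefulness kept up with unfamiliar objects. Polyadenylated RNA from VH punches, which hold the arcuate, ventromedial and paraventricular nuclei together, was pooled from 2 mice for each of the 21 libraries, so each value averages 2 animals.

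Values are whole reads per gene, deposited after the authors had re-sampled the libraries to equal depth. The reads in the gene table summed to 16380781 to 16390598 per library, and no pair of libraries held identical counts. A gene was called when edgeR's quasi-likelihood F-test, fitted to all 21 libraries over the 12768 genes averaging at least 50 reads (the High Filter), gave a Benjamini-Hochberg adjusted p under 0.15. Fold changes are on the log2 scale throughout. The 6 pairs of groups were compared, together with 3 contrasts of the group means. The current diet contrast set the 2 groups eating HFD at the end against the 2 eating RC, and the earlier diet contrast set the 2 groups raised on HFD against the 2 raised on RC. The diet interaction asked whether the difference made by the current diet was the same after either earlier diet, and a last test compared all 4 groups at once. The pairs and contrasts share libraries, so they are not independent of one another.

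The tissue label was checked against markers of the hypothalamic nuclei. *Avp* of the paraventricular nucleus averaged 10480 reads and was never below 1681, *Pomc* of the arcuate nucleus averaged 8304 reads, and *Nr5a1* of the ventromedial nucleus averaged 1250. *Crh*, another paraventricular marker, averaged 8.14 reads and was at 0 in 7 libraries, and *Sim1* averaged 41.4. *Pmch* and *Hcrt*, which mark the neighbouring lateral hypothalamus, averaged 1079 and 254 reads. Of the pituitary markers, *Prl* was at 0 in 11 libraries and reached 841 reads (mean 64.4), *Gh* was at 0 in 7 and reached 2003 (mean 130), and *Cga*, which the pars tuberalis also expresses, averaged 258 reads.

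The libraries differed in the share of low-abundance genes without a read. Of the 3116 genes averaging 5 to 50 reads, the share with a count of 0 was 1.12% to 7.22% in RC NoDS (median 2.34%), 2.31% to 22.4% in RC → HFD (median 12.1%), 5.68% to 31.9% in HFD → RC (median 15.1%) and 7.70% to 32.9% in HFD NoDS (median 14.6%). RC NoDS held none of the 9 libraries in which the share passed 10%, and each of the other groups held 3. Results for *Trh* and *Dio2* are therefore also given with this share as a covariate and from the remaining 12 libraries (5 RC NoDS, 3 RC → HFD, 2 HFD → RC and 2 HFD NoDS), the latter a choice made after the data had been seen.

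Scaled to exon length and library depth (RPKM), the 9 genes spanned a wide range of levels. *Thra* averaged 179 RPKM over the 21 libraries and stood at rank 220 of the 12768 tested genes, and *Trh* averaged 59.0 RPKM at rank 1008. The levels of *Slco1c1* (9.79 RPKM), *Hr* (9.58 RPKM) and *Thrb* (7.74 RPKM) lay close together, and their ranges over libraries overlapped. *Dio2* followed at 3.81 RPKM (1.77 to 5.71), with *Trhde* at 1.29 RPKM (0.817 to 2.501) and *Trhr* at 1.07 RPKM (0 to 1.92), each range overlapping the next. *Dio3* averaged 0.195 RPKM. The lowest *Thra* library (153 RPKM) lay above the highest *Trh* library (117 RPKM). In all, 8 of the 9 genes passed the High Filter, and *Dio3*, at 6.48 reads on average, did not.

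*Trh* (ENSMUSG00000005892, chromosome 6 from 92192055 to 92194644 on the minus strand of NCBIM37, which is mm9) gave 543, 632, 464, 683 and 668 reads in the RC NoDS libraries. The RC → HFD libraries gave 999 reads at the lowest, a median of 1094 and 2047 at the highest. The HFD → RC libraries gave 1462, 1591, 1138, 1291 and 1673 reads, and the HFD NoDS libraries gave 1741, 2613, 2258, 1863 and 1737. Every library of the other 3 groups lay above every RC NoDS library. HFD NoDS also lay wholly above HFD → RC, whereas the ranges of the DS groups overlapped each other and RC → HFD replicate 12, with 2047 reads, reached into the HFD NoDS range. On the scale of RPKM the means were 26.1 in RC NoDS (20.3 to 30.1), 56.9 in RC → HFD (44.6 to 91.9), 63.4 in HFD → RC (51.1 to 73.5) and 90.2 in HFD NoDS (75.7 to 117).

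**Figure D1:**
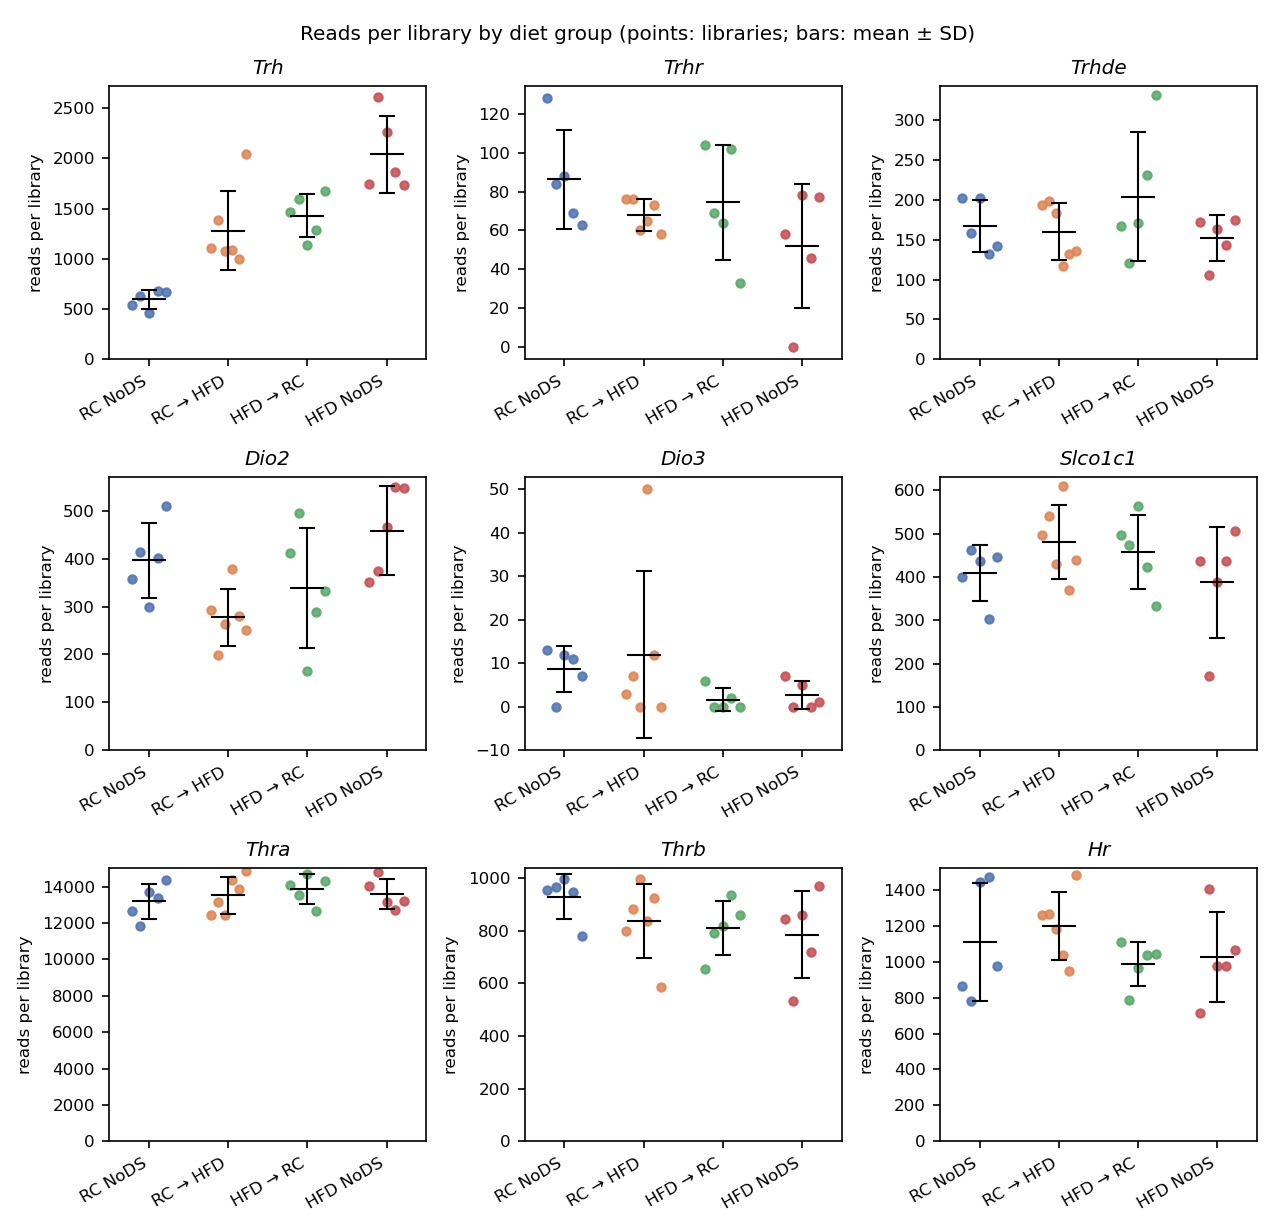
Reads per library of the 9 genes on the vertical axes, with the 4 diet groups along the horizontal axes. Points are libraries, and bars are the mean ± SD of each group (n = 5 or 6). *Trh* lay between 464 and 683 reads in RC NoDS and between 1737 and 2613 in HFD NoDS, while the groups of the other 8 genes overlapped.

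*Trh* was the only one of the 8 tested genes to be called in any comparison. Between HFD NoDS and RC NoDS, 1 of the 8 was called against 0.0783% of all genes tested. *Trh* was higher in HFD NoDS by 1.79 (standard error 0.167, 95% interval 1.45 to 2.13), which is 3.46-fold, and no other gene had a smaller p in this comparison. Relative to RC NoDS, it was higher by 1.13 in RC → HFD (95% interval 0.80 to 1.45), where 0.0392% of genes were called, and by 1.28 in HFD → RC (0.94 to 1.62), where 0.282% were called. The edgeR adjusted p was 2.36e-07, 7.20e-04 and 2.39e-04 in these comparisons, in the same order.

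The other 3 pairs of groups gave no edgeR call for any of the 8 genes. At an unadjusted p under 0.05 there were 2 (*Trh* and *Dio2*) between HFD NoDS and RC → HFD, where 956 of all 12768 genes were, 1 (*Trh*) between HFD NoDS and HFD → RC (1013 of all genes) and 0 between the DS groups (683 of all genes), and limma-voom called 0 in all 3. HFD NoDS exceeded RC → HFD in *Trh* by 0.66 (95% interval 0.35 to 0.98, edgeR adjusted p = 0.312) where 0.0157% of genes were called, and HFD → RC by 0.51 (0.18 to 0.84, edgeR adjusted p = 0.481) where 0.0705% were called. Between the DS groups, *Trh* was 0.16 higher in HFD → RC (−0.16 to 0.47, edgeR adjusted p = 0.9999), and 0.00783% of genes were called. The difference between HFD NoDS and RC → HFD turned on single libraries: without RC → HFD replicate 12 it was 0.86 (edgeR adjusted p = 0.00419), without HFD NoDS replicate 19 it was 0.72 (edgeR adjusted p = 0.138), and DESeq2 called it at 0.67 (adjusted p = 0.141). Over all settings the adjusted p of this difference lay between 0.00419 and 0.582.

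Read counts of the groups did not overlap in 1 of the 8 tested genes, *Trh*, for HFD NoDS against RC NoDS (0.893% of all genes), RC → HFD against RC NoDS (1.17%), HFD → RC against RC NoDS (1.32%) and HFD NoDS against HFD → RC (1.02%). For HFD → RC against RC → HFD (0.486% of all genes) and HFD NoDS against RC → HFD (0.744%), all 8 overlapped.

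Set out by diet, *Trh* was higher with HFD as the current diet by 0.82 (standard error 0.113, edgeR adjusted p = 4.44e-04), a 1.76-fold difference. It was higher with HFD as the earlier diet by 0.97 (standard error 0.113, edgeR adjusted p = 2.62e-05), a 1.96-fold difference. The share of all genes called was 0.047% for the current diet and 0.0705% for the earlier diet, and 1 of the 8 genes was called in each. The interaction was −0.62 (95% interval −1.08 to −0.16, unadjusted p = 0.0103 and adjusted p = 0.364 by edgeR), so the rise with current HFD was 1.13 after RC and 0.51 after HFD, but this contrast was not called. For the interaction 0.0313% of genes were called and 0 of the 8 members, and for all 4 groups 0.149% of genes and 1 of the 8, *Trh* (edgeR adjusted p = 4.74e-06). Of the 8 members, *Trh* and *Dio2* had an unadjusted p under 0.05 in the interaction, as did 1129 of all 12768 genes. DESeq2 and limma-voom called 0 of the 8 there.

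**Figure D2:**
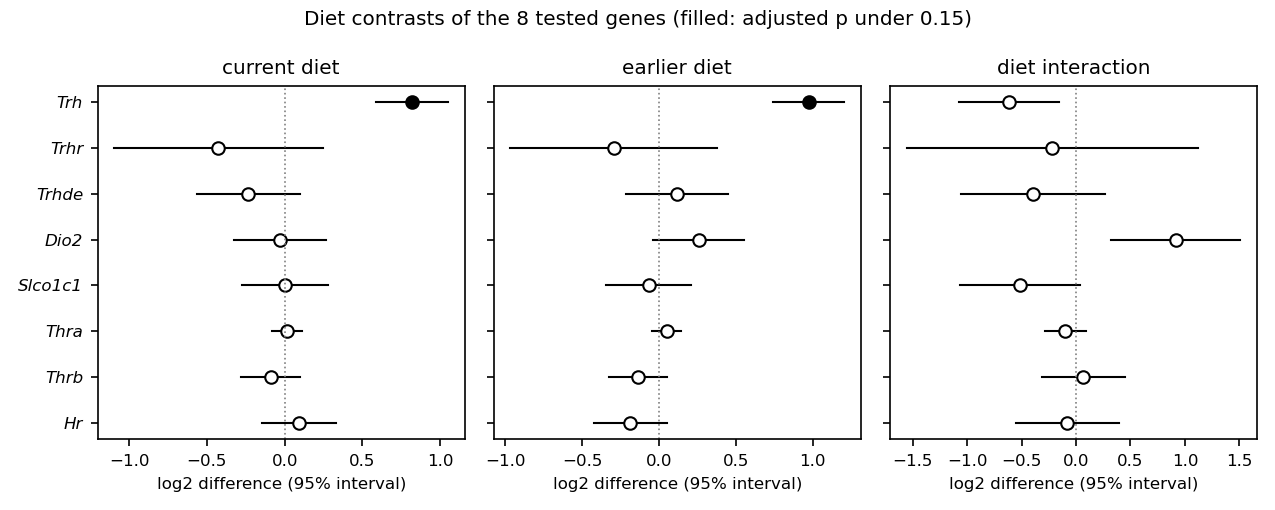
Log2 differences of the 8 tested genes in the current diet, earlier diet and diet interaction contrasts, with 95% intervals as lines. Filled points mark an adjusted p under 0.15. *Trh* lay at 0.82 and 0.97 in the first pair of panels, and in the last panel the intervals of *Trh* and *Dio2* lay on opposite sides of 0.

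In each of the 4 groups, the library with the most *Trh* reads also had the largest share of low-abundance genes at 0. These were RC NoDS replicate 5 (683 reads, 7.22%), RC → HFD replicate 12 (2047 reads, 22.4%), HFD → RC replicate 17 (1673 reads, 31.9%) and HFD NoDS replicate 20 (2613 reads, 32.9%). The cause was not tested. With the share as a covariate, *Trh* was higher in HFD NoDS than in RC NoDS by 1.51 (edgeR adjusted p = 3.68e-06), and in the 12 libraries under 10% it was higher by 1.59 (edgeR adjusted p = 6.70e-06). In those 12 libraries the difference was 0.72 for the current diet (edgeR adjusted p = 0.00730) and 0.87 for the earlier diet (edgeR adjusted p = 0.00117). Every setting run called *Trh* between HFD NoDS and RC NoDS, with a difference of 1.51 to 1.85.

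*Trh* neurons also lie in the lateral hypothalamus. The authors placed the punches to leave this region out and discarded punches with too little *Agrp* and *Pomc* relative to *Hcrt*. Of its 3 markers (*Hcrt*, *Pmch*, *Lhx9*) the 2 tested were both higher in HFD NoDS (median 1.59), RC → HFD (median 1.18) and HFD → RC (median 1.06) than in RC NoDS and with current HFD (median 0.85), with an unadjusted p under 0.05 by edgeR for both in RC → HFD and with current HFD. *Hcrt* was called between HFD NoDS and RC NoDS (2.71, edgeR adjusted p = 0.0513) and *Pmch*, the most abundant, was not, and none was at 0 in any library. *Hcrt* lost its call when RC NoDS replicate 1, 2 or 5 or HFD NoDS replicate 20 or 21 was left out. DESeq2 called it there and for the earlier diet (1.57, edgeR adjusted p = 0.178), where *Pmch* was lower, and edgeR called neither in the other comparisons. The adjusted p of *Hcrt* for HFD NoDS against RC NoDS over all edgeR, DESeq2 and limma-voom settings ran from 0.0114 to 0.9993. The summed level of the 3 markers was 24.1 to 112 CPM (reads scaled to library depth) in RC NoDS, 51.6 to 149 CPM in RC → HFD, 49.1 to 113 CPM in HFD → RC and 43.3 to 146 CPM in HFD NoDS, so all groups overlapped. The log2 of this sum, scaled to total reads alone, then served as a covariate. *Pmch* made the largest part of it (1079 reads on average, against 254 for *Hcrt*), and *Hcrt* was not adjusted for by itself. With this covariate, *Trh* was higher in HFD NoDS than in RC NoDS by 1.75 (edgeR adjusted p = 8.41e-06), in RC → HFD than in RC NoDS by 1.08 (edgeR adjusted p = 0.0147) and with current HFD by 0.79 (edgeR adjusted p = 0.00484). In punches of whole tissue, more cells of a type and more RNA per cell cannot be told apart.

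Of the 5 markers of the paraventricular nucleus, 3 were tested and edgeR and limma-voom called 0 in any of the 10 comparisons, as did DESeq2 where it gave an adjusted p (all but *Otp* between RC → HFD and RC NoDS), with 0 at an unadjusted p under 0.05 between HFD NoDS and RC NoDS. Their median difference between HFD NoDS and RC NoDS was −0.073, against 0.0065 over all genes tested. The summed level was 405 to 1655 CPM in RC NoDS and 248 to 1856 CPM in HFD NoDS, and *Avp* was the most abundant. Whether the share of this nucleus in a punch contributed to the *Trh* values was not tested. Of the 5 arcuate markers, 2 were higher and 3 lower with HFD as the current diet, as in RC → HFD and in HFD NoDS against RC NoDS. *Pomc* was among those higher, with 7159 reads on average in RC NoDS and 9422 in RC → HFD, and was not called. *Agrp* was called lower with HFD as the current diet (−0.93, edgeR adjusted p = 7.77e-04), in RC → HFD (−1.24, edgeR adjusted p = 0.00155) and in HFD NoDS (−0.97, edgeR adjusted p = 0.0507), the latter pair against RC NoDS. The HFD NoDS call was lost without RC NoDS replicate 1 (edgeR adjusted p = 0.166) or 5 (0.244) or HFD NoDS replicate 19 (0.231), 21 (0.218) or 24 (0.155), and with a robust dispersion (0.255), the lateral hypothalamus markers as a covariate (0.160) and the 12 libraries (0.484). DESeq2 also called *Agrp* between the DS groups and *Tbx3* in the interaction, where edgeR called neither. *Pomc* was the most abundant arcuate marker and none was at 0, with a sum of 465 to 787 CPM in RC NoDS and 624.7 to 913 CPM in HFD NoDS. All 3 ventromedial markers were higher in HFD NoDS than in RC NoDS (median 0.19), with 0 at an unadjusted p under 0.05. In the interaction all 3 were negative (median −0.63, with −0.62 for *Trh*) and all 3 had an unadjusted p under 0.05, as did 2 of the 3 between HFD → RC and RC NoDS, where all 3 were higher (median 0.49). The interaction was also negative for the 2 lateral hypothalamus markers tested (median −0.66) and all 5 neuron markers (median −0.30). It was positive for the 3 paraventricular markers tested (median 0.60) and 4 of the 5 arcuate markers (median 0.49). In these lists 0, 3, 1 and 2 markers, in the same order, had an unadjusted p under 0.05 by edgeR. edgeR and limma-voom called 0 of the ventromedial markers in any comparison, and DESeq2 called 0 in those other than RC → HFD against RC NoDS, where it gave them no adjusted p. Whether the share of this nucleus in a punch contributed to the *Trh* interaction was not tested.

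The genes whose log2 CPM followed *Trh* most closely over the 21 libraries were found among 12702 other tested genes without a count of 0, as a description of the same libraries. Pearson's r was highest for *Clu* (0.77), *Hspa1b* (0.77), *Accn4* (0.75), *Trpc4ap* (0.73) and *Csdc2* (0.73). It was lowest for *N4bp2l1* (−0.79), *Cdadc1* (−0.77) and *Pcdh20* (−0.77). *Clu*, which encodes the chaperone clusterin, averaged 14050, 15490, 15550 and 16990 reads in RC NoDS, RC → HFD, HFD → RC and HFD NoDS, the same order of means as *Trh*. *Pcdh20*, a protocadherin, averaged 993, 669, 677 and 614 reads in these groups. After the mean of each group was subtracted, the highest r was that of *Il6ra* (0.81), *Ssfa2* (0.78), *Trpc4ap* (0.78), *Evpl* (0.76) and *Hmga1* (0.76), so only *Trpc4ap* was in both lists. For comparison, 3.16% of all genes had an r over 0.5 with *Trh* before and 3.48% after subtraction of the group means. Of the thyroid genes without a count of 0, *Thra* had an r of 0.38 with *Trh*, *Dio2* 0.10, *Hr* 0.05, *Trhde* −0.12, *Slco1c1* −0.20 and *Thrb* −0.59. After subtraction of the group means these were 0.36 for *Thra*, 0.15 for *Dio2*, 0.36 for *Hr*, −0.26 for *Trhde*, −0.45 for *Slco1c1* and −0.68 for *Thrb*. The r of *Trh* with the share of low-abundance genes at 0 was 0.68, and 0.55 after subtraction. All of these r come from the same 21 libraries.

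The transcript of *Trh* carries the hormone several times over, and the copies are shown because 1 transcript encodes all of them. In the coding sequence of 771 bases, 5 stretches hold the codons of the hormone's precursor peptide between pairs of basic codons. They lie on the minus strand of NCBIM37, at chr6:92193082-92193105, chr6:92192986-92193009, chr6:92192851-92192874, chr6:92192797-92192820 and chr6:92192704-92192727, in the order of the transcript. In the sequences below, capitals mark the 12 bases of the peptide, which occur in 4 different spellings.
copy 1: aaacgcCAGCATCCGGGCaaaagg
copy 2: aaacgaCAGCACCCTGGCcgacgt
copy 3: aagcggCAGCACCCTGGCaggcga
copy 4: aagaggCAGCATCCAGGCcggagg
copy 5: aaacgtCAGCATCCTGGCaaaagg

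*Trhr*, which encodes a receptor through which TRH signals (ENSMUSG00000038760, chromosome 15 from 44027681 to 44067458), gave 128, 84, 88, 69 and 63 reads in RC NoDS, and 58 to 76 reads with a median of 69 in RC → HFD. HFD → RC gave 104, 69, 64, 102 and 33 reads, and HFD NoDS 58, 0, 78, 46 and 77. The 0 belonged to HFD NoDS replicate 20, the library with the largest share of low-abundance genes at 0, and all groups overlapped. The difference between HFD NoDS and RC NoDS was −0.72 (95% interval −1.70 to 0.25, edgeR adjusted p = 0.721). It was −0.40 without HFD NoDS replicate 20 and −0.92 without HFD NoDS replicate 21, and over the other settings it ran from −1.77 with limma-voom to −0.13 with the share of low-abundance genes at 0 as a covariate, without a call in any. Markers of the pituitary, where *Trhr* is also expressed, differed widely between libraries: their sum ran from 11.5 to 68.8 CPM in RC NoDS, 3.05 to 124 CPM in RC → HFD, 3.96 to 180 CPM in HFD → RC and 3.26 to 65.6 CPM in HFD NoDS, with *Cga* the most abundant marker and at 0 in 1 library. edgeR and limma-voom called 0 of the 5 pituitary markers tested in any comparison, and DESeq2 called 0 of those to which it gave an adjusted p, which left out *Gh* throughout. By edgeR 0 had an unadjusted p under 0.05 between HFD NoDS and RC NoDS, and their part in the *Trhr* values was not tested.

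*Trhde*, the membrane peptidase that inactivates TRH (ENSMUSG00000050663, chromosome 10 from 113835879 to 114239363), gave 202, 159, 202, 132 and 142 reads in RC NoDS. It gave 117 to 199 reads in RC → HFD (median 160), 167, 121, 171, 231 and 332 in HFD → RC, and 173, 106, 164, 143 and 175 in HFD NoDS. HFD → RC replicate 17 was the highest of all libraries, and every pair of groups overlapped. Between HFD NoDS and RC NoDS the difference was −0.12 (95% interval −0.60 to 0.36, edgeR adjusted p = 0.910).

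Genes that process the TRH precursor or degrade the peptide, listed together with the receptor gene *Trhr2*, gave no edgeR call. Of a list of 10 (*Pcsk1*, *Pcsk2*, *Cpe*, *Pam*, *Qpct*, *Scg5*, *Pcsk1n*, *Pgpep1*, *Prep*, *Trhr2*), 9 were tested, and 0 were called by edgeR in any of the 10 comparisons, while DESeq2 called *Pcsk2* between RC → HFD and RC NoDS and in the interaction. At an unadjusted p under 0.05 there was 1 between HFD NoDS and RC NoDS. In HFD NoDS 4 were higher and 5 lower than in RC NoDS, with a median of −0.015. The smallest unadjusted p there were those of *Cpe*, the carboxypeptidase that trims the peptides (−0.13, unadjusted p = 0.0360 by edgeR), and *Pcsk2*, a prohormone convertase (0.10, unadjusted p = 0.166 by edgeR). *Pcsk1n*, which encodes an inhibitor of a convertase, had the highest mean count of the list, 30100 reads. *Trhr2*, which encodes another TRH receptor, averaged 5.10 reads and was not tested.

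*Dio2* (ENSMUSG00000007682, chromosome 12 from 91962994 to 91976878) showed another order of groups. Its reads were 357, 413, 298, 402 and 510 in RC NoDS and 198 to 378 with a median of 272 in RC → HFD. HFD → RC gave 411, 496, 166, 289 and 333 reads, and HFD NoDS 352, 375, 466, 549 and 548. RC → HFD had the lowest mean (277 ± 59.4, SD, n = 6) and HFD NoDS the highest (458 ± 93.0, n = 5), with 396 ± 78.2 in RC NoDS and 339 ± 125 in HFD → RC. All pairs of groups overlapped, HFD NoDS and RC → HFD only through the range from 352 to 378 reads.

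*Dio2* was not called. It was 0.71 higher in HFD NoDS than in RC → HFD (95% interval 0.30 to 1.12, unadjusted p = 0.00131 and adjusted p = 0.439 by edgeR), and 0.49 lower in RC → HFD than in RC NoDS, a log2 fold change of −0.49 (edgeR adjusted p = 0.701). The interaction was 0.91 (95% interval 0.32 to 1.51, unadjusted p = 0.00378 and adjusted p = 0.277 by edgeR), with 0.43 for current HFD after HFD (edgeR adjusted p = 0.631). In the 12 libraries with under 10% of low-abundance genes at 0, the interaction was 1.54 (edgeR adjusted p = 0.0481), a call that rests on 2 libraries in each of HFD → RC and HFD NoDS. That setting called 670 of 12797 genes in the interaction, against 4 of 12768 with all libraries, so the call was not particular to *Dio2*. With the share of low-abundance genes at 0 as a covariate, the interaction was 0.98 (edgeR adjusted p = 0.244) and the difference between HFD NoDS and RC → HFD 0.70 (edgeR adjusted p = 0.613). Outside the 12 libraries the adjusted p of the interaction lay between 0.155 and 0.515. The exons of *Dio2* overlap those of *Gm16738* on the opposite strand, which averaged 15.5 reads.

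Tanycytes, the ependymal cells of the third ventricle, express *Dio2*, and their markers were read beside it. Of *Rax*, *Gpr50*, *Col23a1*, *Crym* and *Scn7a*, all 5 were lower in RC → HFD than in RC NoDS (median −0.39), all 5 were higher in HFD NoDS than in RC → HFD (median 0.43), and all 5 were positive in the interaction (median 0.70), against medians within 0.01 of 0 over all genes. Between HFD NoDS and RC NoDS 3 were higher and 2 lower (median 0.05), and with current HFD 2 were higher and 3 lower. edgeR called none of the 5 in any comparison, with 4 at an unadjusted p under 0.05 in the interaction, where DESeq2 called 2 (*Crym* and *Col23a1*) and limma-voom 0. DESeq2 also called *Crym* between HFD NoDS and RC → HFD and over all 4 groups. *Crym* encodes a thyroid hormone binding protein and also stands on the list of transport genes. Their summed level was 481 ± 65.8 CPM in RC NoDS, 369 ± 92.7 CPM in RC → HFD, 378 ± 65.5 CPM in HFD → RC and 494 ± 69.2 CPM in HFD NoDS (mean ± SD), with *Col23a1* the most abundant and no marker at 0. The library with the fewest *Dio2* reads had the lowest tanycyte sum of its group in RC NoDS (replicate 3, 298 reads, 382 CPM) and HFD → RC (replicate 15, 166 reads, 290 CPM), but not in RC → HFD (replicate 8, 198 reads, 300 CPM) or HFD NoDS (replicate 19, 352 reads, 492 CPM). The library with the most *Dio2* reads had the highest sum in RC → HFD (replicate 10, 378 reads, 484 CPM), HFD → RC (replicate 14, 496 reads, 467 CPM) and HFD NoDS (replicate 23, 549 reads, 561 CPM), but not in RC NoDS (replicate 6, 510 reads, 531.9 CPM, against 532.5 CPM in replicate 5). The part of tanycyte content in the *Dio2* values was not tested. Astrocytes also express *Dio2*, and of 6 markers tested (*Gfap*, *Aqp4*, *Aldh1l1*, *Slc1a3*, *Agt*, *Gja1*) 3 were higher and 3 lower with current HFD and 4 higher and 2 lower with earlier HFD, where *Gfap* was called (0.73, edgeR adjusted p = 0.0891). That call was lost without RC NoDS replicate 1, 2 or 5, RC → HFD replicate 8, 9, 10 or 11, HFD → RC replicate 13 or 14 or HFD NoDS replicate 20 or 23, with an adjusted p of up to 0.251. It was also lost with limma-voom (adjusted p = 0.359), a robust dispersion (0.504), the share of low-abundance genes as a covariate (0.9999) and the 12 libraries (0.335). DESeq2 called *Gfap* for the earlier diet and between HFD NoDS and RC → HFD, where edgeR did not. *Slc1a3* was the most abundant astrocyte marker, none was at 0, and the sum was 1528 to 1753 CPM in RC NoDS and 1557 to 1977 CPM in HFD NoDS.

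**Figure D3:**
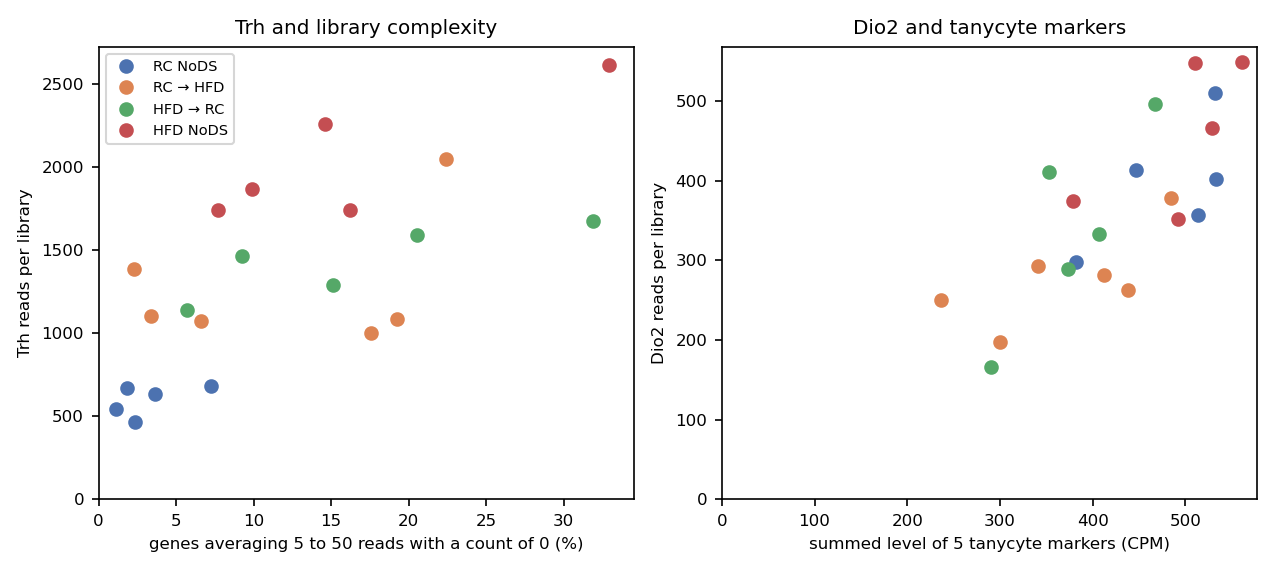
Left, *Trh* reads per library against the percentage of low-abundance genes (means of 5 to 50) without a read. Right, *Dio2* reads per library against the summed level of 5 tanycyte markers in CPM. Each point is a library, coloured by diet group. The RC NoDS libraries lay at 7.22% or less on the left, and the *Dio2* minimum of 166 reads lay at 290 CPM on the right.

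*Dio3* (ENSMUSG00000075707, chromosome 12 from 111517278 to 111519307) was near the limit of detection. It had 13, 0, 12, 11 and 7 reads in RC NoDS and 0 to 50 reads with a median of 5 in RC → HFD. HFD → RC gave 6, 0, 0, 2 and 0 reads, and HFD NoDS 7, 0, 5, 0 and 1. In all, 8 of the 21 libraries had no read, and RC → HFD replicate 10, with 50 reads, stood apart from the others of its group, which had at most 12. In the fit without a filter on low counts the earlier diet contrast was −2.25 (standard error 0.992, edgeR adjusted p = 0.553), with an unadjusted p of 0.0299. edgeR without the filter called *Dio3* in no comparison.

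*Slco1c1*, whose product carries thyroxine across the blood-brain barrier (ENSMUSG00000030235, chromosome 6 from 141472907 to 141518241), gave 400, 463, 438, 302 and 446 reads in RC NoDS and 371 to 609 (median 468.5) in RC → HFD. HFD → RC gave 496, 473, 563, 423 and 334 reads, and HFD NoDS 436, 171, 388, 438 and 506. The lowest value was again HFD NoDS replicate 20, and all groups overlapped. The difference between HFD NoDS and RC NoDS was −0.06 (95% interval −0.46 to 0.33, edgeR adjusted p = 0.949), and it turned to 0.12 without replicate 20 (edgeR adjusted p = 0.999).

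Other genes of thyroid hormone transport and metabolism gave no edgeR call. Of *Slc16a10*, *Slc7a5*, *Slc7a8*, *Slc3a2*, *Slco1a4*, *Crym*, *Ttr*, *Dio1* and *Secisbp2*, *Dio1* was not in the table, and *Slc16a10* and *Ttr* were below the High Filter. Of those tested, edgeR called 0 in any of the 10 comparisons, with 0 at an unadjusted p under 0.05 between HFD NoDS and RC NoDS, limma-voom called 0 and DESeq2 called *Crym* alone. *Slco1a4*, another thyroxine transporter (−0.24, unadjusted p = 0.348 by edgeR), and *Slc7a8*, an amino acid transporter (0.12, unadjusted p = 0.402 by edgeR), had the smallest p of these genes between HFD NoDS and RC NoDS. *Slc3a2*, the heavy chain shared by amino acid transporters, had the highest mean count of these genes (2148 reads). *Ttr*, a marker of choroid plexus, averaged 33.8 reads and was at 0 in 1 library. Of the 6 choroid plexus markers 2 were tested, and of the 6 endothelial markers all were. edgeR and limma-voom called none of these in any comparison and DESeq2 none outside RC → HFD against RC NoDS, where it gave them no adjusted p, with 0 and 0 at an unadjusted p under 0.05 between HFD NoDS and RC NoDS.

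*Thra* (ENSMUSG00000058756, chromosome 11 from 98601952 to 98630320) was the most even of the 9 genes. Its reads ran from 11832 to 14376 in RC NoDS, 12430 to 14870 in RC → HFD, 12632 to 14711 in HFD → RC and 12715 to 14824 in HFD NoDS, with a coefficient of variation of 5.81% to 7.49% within groups. HFD NoDS differed from RC NoDS by 0.06 (95% interval −0.07 to 0.20, edgeR adjusted p = 0.817). That sign is not stable, since it was −0.02 with the share of low-abundance genes as a covariate. Exons of *Thra* overlap those of *Nr1d1* on the opposite strand (1677 reads on average), and it is not given in the sources used here whether reads were counted by strand.

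*Thrb* (ENSMUSG00000021779, chromosome 14 from 18493474 to 18870602) gave 955, 966, 998, 949 and 781 reads in RC NoDS and 586 to 998 (median 859.5) in RC → HFD. HFD → RC gave 654, 791, 817, 936 and 860 reads, and HFD NoDS 844, 535, 859, 719 and 969. The means were lower in each of the other groups than in RC NoDS, but all ranges overlapped. HFD NoDS differed from RC NoDS by −0.23 (95% interval −0.50 to 0.05, edgeR adjusted p = 0.692). The lowest libraries, HFD NoDS replicate 20 (535 reads) and RC → HFD replicate 12 (586 reads), were those with the most *Trh* reads in their groups and their groups' largest shares of low-abundance genes at 0.

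Of the partners of the nuclear receptors, *Rxra*, *Rxrb*, *Rxrg*, *Ncor1*, *Ncoa1*, *Ncoa2*, *Ncoa3*, *Med1*, *Hdac3*, *Tbl1x*, *Tbl1xr1*, *Gps2*, *Crebbp* and *Ep300* were tested. edgeR and limma-voom called 0 of them in any comparison, as did DESeq2 where it gave an adjusted p, and 0 had an unadjusted p under 0.05 by edgeR between HFD NoDS and RC NoDS. *Rxrb*, a retinoid X receptor that pairs with the thyroid hormone receptors (0.21, unadjusted p = 0.0589 by edgeR), and *Tbl1x*, of the corepressor complex (−0.14, unadjusted p = 0.118 by edgeR), had the smallest p of these genes there.

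*Hr*, a corepressor of the thyroid hormone receptors that is itself induced by the hormone in brain (ENSMUSG00000022096, chromosome 14 from 70952019 to 70973355), gave 865, 784, 1447, 1473 and 979 reads in RC NoDS and 947 to 1484 (median 1222) in RC → HFD. HFD → RC gave 1110, 785, 965, 1036 and 1044 reads, and HFD NoDS 714, 1405, 977, 975 and 1063. The RC NoDS libraries were split, with replicates 3 and 5 well above the others, and all groups overlapped. HFD NoDS differed from RC NoDS by −0.09 (95% interval −0.44 to 0.25, edgeR adjusted p = 0.897), and the sign turned when RC NoDS replicate 3 (0.02), RC NoDS replicate 5 (0.03) or HFD NoDS replicate 19 (0.01) was left out.

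Of 12 further genes that thyroid hormone induces in brain (*Klf9*, *Nrgn*, *Aldh1a1*, *Aldh1a3*, *Camk4*, *Shh*, *Nefh*, *Nefm*, *Sema7a*, *Mbp*, *Gbp3*, *Flywch2*), 11 were tested. In HFD NoDS 8 were higher and 3 lower than in RC NoDS (median 0.119, against 0.0065 over all genes). edgeR, DESeq2 and limma-voom called 0 there, with 3 at an unadjusted p under 0.05, as were 946 of all 12768 genes. Between HFD → RC and RC NoDS, where 0.282% of all genes were called (32 of 36 higher), 7 of the 11 were higher and 4 lower, edgeR called 3, all higher, and DESeq2 called these and *Sema7a*. The 3 were *Nefh* (0.36, edgeR adjusted p = 0.132) and *Nefm* (0.56, edgeR adjusted p = 0.146), which encode neurofilaments, and *Mbp* (1.04, edgeR adjusted p = 0.115), which encodes a myelin protein. *Mbp* was also called for the earlier diet (0.75, edgeR adjusted p = 0.142), where 0.0705% of all genes were called and DESeq2 called *Mbp* and *Sema7a*. In the interaction 4 of the 11 were positive and 7 negative, 4 had an unadjusted p under 0.05, and DESeq2 called *Nefh*, which edgeR did not. *Mbp* had the highest mean count of the list (31250 reads). For HFD NoDS against RC NoDS, *Mbp* (0.72, edgeR adjusted p = 0.640) and *Sema7a*, a semaphorin (0.44, edgeR adjusted p = 0.640), had the smallest p of the list.

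These calls were close to the threshold. *Mbp* lost its call between HFD → RC and RC NoDS when RC NoDS replicate 1, 2 or 5 or HFD → RC replicate 13, 14 or 15 was left out, with an adjusted p of up to 0.442. *Nefh* lost its call without RC NoDS replicate 1, 2, 3 or 5, RC → HFD replicate 7, 9 or 10, HFD → RC replicate 13, 14, 15 or 17 or HFD NoDS replicate 21 (adjusted p of up to 0.442). *Nefm* kept its call only without RC → HFD replicate 12, HFD → RC replicate 16 or HFD NoDS replicate 20, 23 or 24, and its adjusted p was up to 0.460 without the other libraries. The earlier diet call of *Mbp* was lost in 13 of the 21 fits that left out a library, all but those without RC NoDS replicate 3 or 6, RC → HFD replicate 12, HFD → RC replicate 16 or 17 or HFD NoDS replicate 19, 21 or 24 (adjusted p of up to 0.442). limma-voom called none of the 3 genes, and neither did edgeR scaled to library size only or with the share of low-abundance genes at 0 as a covariate, where the adjusted p between HFD → RC and RC NoDS was 0.557 for *Mbp*, 0.712 for *Nefh* and 0.729 for *Nefm*. With a robust dispersion *Mbp* (0.294) and *Nefm* (0.199) lost that call, and *Mbp* the one for the earlier diet (0.524), which was also lost in the 12 libraries (0.161). *Nefh* and *Nefm* lost theirs when genes averaging at least 5 reads were tested too (0.153 and 0.171). Of the 12 settings besides the leave-one-out fits, *Nefh* lost its call in 5 and *Nefm* in 7. The oligodendrocyte marker *Mobp* was also called higher in HFD → RC than in RC NoDS (1.19, edgeR adjusted p = 0.0614), and it lost the call without the same 6 libraries as *Mbp*, with an adjusted p of up to 0.335, and with limma-voom (0.152), a robust dispersion (0.202) and the share of low-abundance genes as a covariate (0.280). The part of oligodendrocyte content in the *Mbp* values was not tested. All 5 neuron markers were higher in HFD → RC than in RC NoDS (median 0.14). Of these, 2 had an unadjusted p under 0.05 by edgeR and 0 were called. The part of neuron content in the *Nefh* and *Nefm* values was not tested.

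Genes through which leptin, melanocortins, neuropeptide Y and glucocorticoids reach *Trh* neurons, or which specify these cells, formed the last list. Of 12 (*Lepr*, *Stat3*, *Socs3*, *Mc4r*, *Npy1r*, *Npy5r*, *Creb1*, *Sim1*, *Otp*, *Pou3f2*, *Arnt2*, *Nr3c1*), 11 were tested, and 5 were higher and 6 lower in HFD NoDS than in RC NoDS (median −0.011). *Stat3*, which transmits the leptin signal, was called, at 0.37 (edgeR adjusted p = 0.0454), with 3010 ± 237 reads in RC NoDS, 3154 ± 242 in RC → HFD, 2959 ± 245 in HFD → RC and 3842 ± 253 in HFD NoDS (mean ± SD). It was also 0.37 higher in HFD NoDS than in HFD → RC (edgeR adjusted p = 0.0896), and DESeq2 and limma-voom called it in both comparisons. DESeq2 also called it between HFD NoDS and RC → HFD, and both tools called it for the current diet, where edgeR did not in either case. *Socs3*, which is induced by *Stat3* signalling, averaged 186, 253, 193 and 317 reads in the same order of groups, and its difference of 0.79 between HFD NoDS and RC NoDS was not called (unadjusted p = 6.24e-04 and adjusted p = 0.469 by edgeR). DESeq2 called it there (adjusted p = 0.128) and for the current diet, and so in HFD NoDS against RC NoDS did edgeR with the lateral hypothalamus markers as a covariate (adjusted p = 0.0397). *Arnt2*, the partner of *Sim1*, had the highest mean count (5423 reads). *Stat3* lost its call between HFD NoDS and RC NoDS when RC NoDS replicate 1 or 2 or HFD NoDS replicate 19 or 23 was left out (adjusted p of up to 0.245), and with the share of low-abundance genes as a covariate (adjusted p = 0.810), in the 12 libraries (0.484) and when only these groups were fitted (0.159). It lost the call between HFD NoDS and HFD → RC without HFD → RC replicate 13, 15 or 17 or HFD NoDS replicate 19 or 23 (adjusted p of up to 0.311), and when only these groups were fitted (adjusted p = 0.447).

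Promoters from RefSeq (GRCm38.p6, a later build than that of the counts) were available for 6 of the 9 genes, in 7 entries: *Trh*, *Trhde*, *Dio2*, *Dio3*, *Slco1c1* and *Thrb*, the last with 2. The 250 bases before the start of each gene were searched on both strands for AGGTCA, the half-site that thyroid hormone receptors bind, TGACGTCA, the cyclic AMP response element, and TTCNNNGAA, a STAT site. Of 27025 promoters, 13.8% held AGGTCA, 1.62% held TGACGTCA and 7.18% held TTCNNNGAA. *Trh* held 1 AGGTCA on its opposite strand, starting 57 bases before the gene, *Dio2* held 1 TGACGTCA starting 95 bases before it, and 1 of the entries of *Thrb* held an AGGTCA. The remaining entries held none of the 3 motifs. A match describes the letters in this window only. The promoters of *Trh* (chr6:92244651-92244900, minus strand) and *Dio2* (chr12:90739039-90739288, minus strand) are shown because these genes had the smallest p of the 8 tested when all 4 groups were compared, with the matches in capitals.
Trh: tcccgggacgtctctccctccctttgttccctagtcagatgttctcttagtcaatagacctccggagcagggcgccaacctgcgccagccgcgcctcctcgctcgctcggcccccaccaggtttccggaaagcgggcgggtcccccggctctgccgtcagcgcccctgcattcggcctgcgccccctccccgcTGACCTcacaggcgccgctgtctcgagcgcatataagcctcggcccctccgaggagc
Dio2: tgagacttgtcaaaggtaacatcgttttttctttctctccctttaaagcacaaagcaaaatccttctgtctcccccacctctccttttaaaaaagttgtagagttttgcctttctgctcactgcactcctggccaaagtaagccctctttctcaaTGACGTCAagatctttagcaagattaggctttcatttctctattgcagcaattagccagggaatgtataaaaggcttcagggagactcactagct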

How the data were processed

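RNA-seq libraries were made by the authors with a stranded polyA kit from VH punches of 2 pooled mice. The authors merged runs with Picard 2.7.1, aligned reads to mm9 with STAR 2.5.1b and brought the libraries to equal depth with PORT. The deposited counts are whole reads per gene, which summed to 16380781 to 16390598 per library, and were used as deposited. Groups and replicate numbers were taken from the sample names. Counts were normalized by TMM (factors 0.982 to 1.02) and tested with edgeR 4.0.16 under R 4.3.3, with Benjamini-Hochberg adjustment over all genes averaging at least 50 reads. The code was checked on simulated counts before use. The spread between libraries of a group underlies every p-value. Alternatives were DESeq2 1.42.0, limma-voom (limma 3.58.1), filters at 5 reads or none, other scaling, a robust dispersion, fits of 2 groups, 2 covariates, reads summed by symbol, each library left out and, chosen after seeing the data, 12 libraries. Exon lengths and positions came from the NCBIM37 annotation. Python 3.11.15, numpy 2.4.6, pandas 2.3.3 and matplotlib 3.10.9 were used.

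The 9 genes, the gene lists and the tests were chosen with earlier results of these data known. Of each pathway list, genes called in any comparison, the 2 with the smallest p between HFD NoDS and RC NoDS and, for all but the receptor partners, the most abundant were named. The genes most like *Trh* were the 5 with the highest and the 3 with the lowest r, and the 5 with the highest r within groups. Markers of thalamus, dorsomedial nucleus, neurons and microglia were read as well. edgeR and limma-voom called none in any comparison, and DESeq2 none where it gave an adjusted p. Of the 3 dorsomedial markers only *Npvf* was tested. Against RC NoDS it was higher in HFD NoDS (0.48), RC → HFD (1.09) and HFD → RC (0.635), and its interaction was −1.25. Its unadjusted p by edgeR was under 0.05 in RC → HFD against RC NoDS and in the interaction. Its part in the *Trh* values was not tested. *Agrp*, *Gfap* and *Mobp* are named because they were called, a choice made after their values were seen.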

Additional observations from a re-analysis of the deposited data

Results flagged for a closer look

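In each of the 36 groups of libraries (9 genes in 4 diet groups), the gap between the most extreme library and its nearest neighbour was divided by the range of the group. Chance alone sets apart about 1 in 20 groups, and 3 of the 36 were set apart. *Trh* in RC → HFD replicate 12 gave 2047 reads, where the other libraries of the group gave 999 to 1385, and the ratio of 0.632 was just above the critical value of 0.625. *Dio3* in RC → HFD replicate 10 gave 50 reads, where the others gave 0 to 12. *Thrb* in RC NoDS replicate 6 gave 781 reads, where the others gave 949 to 998. The causes were not tested.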

How the results depend on the processing

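*Trh* was called between HFD NoDS and RC NoDS, between each DS group and RC NoDS, and for current and earlier diet in every setting that gave an adjusted p. Between HFD NoDS and RC → HFD, the number of the 8 genes called rose from 0 to 1 (*Trh*) with DESeq2, where its difference was 0.67, and ran from 0 to 1 when single libraries were left out, with *Trh* between 0.55 and 0.86. In the interaction, 1 gene (*Dio2*) was called in the 12 libraries with under 10% of low-abundance genes at 0, a setting chosen after seeing the data, in which 670 of all 12797 genes were called there.

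Between HFD NoDS and RC NoDS, *Slco1c1* changed sign to 0.26 with the share of low-abundance genes as a covariate and to 0.21 in the 12 libraries, and ran from −0.17 to 0.12 with single libraries left out. *Thra* changed sign to −0.0232 with that covariate and to −0.0233 in the 12 libraries. *Hr* ran from −0.24 to 0.0349 with single libraries left out. None of these was called, and the cause was not tested.

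The number of all genes called varied much more with the setting: from 10 to between 6 and 25 for HFD NoDS against RC NoDS (5 to 14 with single libraries left out), from 36 to between 1 and 502 for HFD → RC against RC NoDS (1 to 203), and from 4 to between 0 and 670 for the interaction (0 to 123). The highest of the latter pair, 502 and 670, came from the 12 libraries. DESeq2 gave no adjusted p for the tested members, and for some genes of the lists, between RC → HFD and RC NoDS, so it has no call there, nor for *Gh* in any comparison or *Prl* in the earlier diet contrast. No paired analysis was possible because replicate numbers are unique across groups. Genes averaging under 50 reads, such as *Dio3*, were outside the High Filter.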
